A study of Mus musculus with 17 samples.

Results

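The cells described here are 17 single Tomato-positive cells of adult mouse back skin, split by the transcript of Pi16, the gene for peptidase inhibitor 16. A cell was called Pi16-detected when its deposited Pi16 value was 1 or more and Pi16-undetected when it was below 1, which gave 12 and 5 of the 17 cells. The members were thus chosen by their Pi16 values. Values are on a log scale, read here as log2 of FPKM (fragments scaled by transcript length and library size) plus 1, so that a value of 1 stands for an FPKM of 1. All cells came from 1 group: C57BL/6 adults of the genotype Prrx1-CreERT;Tomato injected daily with tamoxifen for 3 days. In such mice a tamoxifen-dependent Cre recombinase driven by the Prrx1 promoter switches on the red fluorescent protein Tomato, so the sort is meant to hold only cells in which that driver was active at the time of tamoxifen. Skin was dissociated in an elastase step followed by a collagenase step, red cells were sorted, and single cells were picked under a fluorescence microscope for a 3′ end library. No animal is named for any cell, so the 17 cells count as 1 sample, and every difference below describes these cells with no test.

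Pi16 encodes a secreted or membrane-anchored protein of the CAP family. It is widely used as a marker of fibroblasts that lie around vessels (adventitial fibroblasts) and in the fascia beneath skin, cells that also carry the surface peptidase Dpp4. Fibroblasts of a second kind, marked by Col15a1, lie in the tissue itself and are known for basement membrane components.

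Pi16 (ENSMUSG00000024011) lies on the forward strand at chr17:29317680-29330593 of GRCm38. In the detected cells its values were 3.27 in cell 2, 1.84 in cell 4, 5.53 in cell 5, 4.12 in cell 6, 1.72 in cell 8, 3.97 in cell 9, 6.07 in cell 10, 8.54 in cell 11, 3.55 in cell 14, 5.60 in cell 15, 1.18 in cell 16 and 5.17 in cell 17. In the undetected cells they were 0.665 in cell 1, 0.594 in cell 3, 0.454 in cell 7, 0.792 in cell 12 and 0.602 in cell 13. These values chose the cells and are given as a description. The values nearest the split were 0.792 in cell 12, just outside, and 1.18 in cell 16, just inside, and no cell was at the lowest deposited value. The detected cells spanned 1.18 to 8.54 with a median of 4.05, so the class runs from cells near the split to cells with abundant transcript. The share of Pi16-detected cells was 70.6% (exact Clopper-Pearson 95% interval 44.0% to 89.7%, which covers counting error over cells only).

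**Figure D1:**
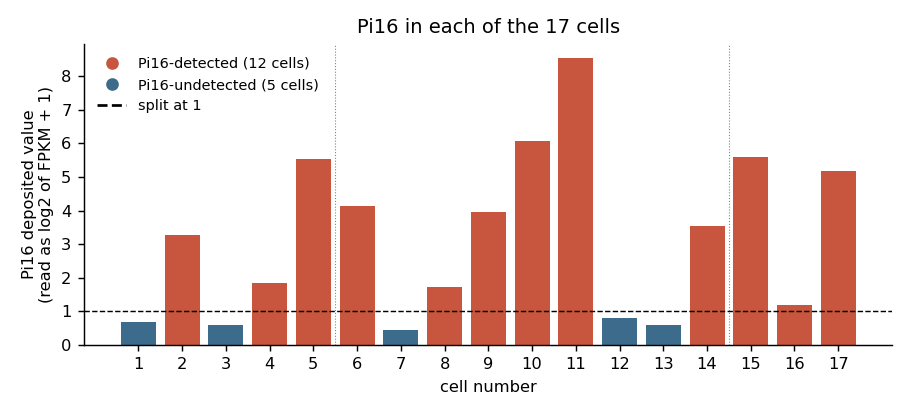
Pi16 value of each cell (vertical axis, deposited value read as log2 of FPKM plus 1) by cell number (horizontal axis). Bars are single cells, the dashed line is the split at 1, and dotted lines separate cells 1 to 5, 6 to 14 and 15 to 17. The 5 undetected cells sit between 0.454 and 0.792 and the 12 detected cells between 1.18 and 8.54.

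General fibroblast genes were found in both kinds of cell. Of 7 fibroblast genes (Pdgfra, Col1a1, Col1a2, Col3a1, Lum, Serpinf1, Thy1), 6 to 7 were found (value of 1 or more) in each detected cell and 6 to 7 in each undetected cell. Their levels leaned lower in detected cells. The difference of means, detected minus undetected, was below 0 for 5 of the 7 and above 0 for 2, with a median of -0.97. Lum differed by -1.58, Serpinf1 by -1.12 and Thy1 by 2.80. Averaged over the 7 genes, the level of a cell was 7.48 to 10.01 in detected and 7.68 to 9.77 in undetected cells. Prrx1, the transcription factor whose promoter drives the Cre, was found in all 12 detected and all 5 undetected cells. Its value ran from 4.22 through a median of 5.85 to 7.31 in detected cells, and was 6.37, 3.85, 2.63, 6.03 and 4.75 in undetected cells 1, 3, 7, 12 and 13. The 2 ranges overlapped. The quantile normalisation gives all cells nearly the same number of genes found, so genes at the lowest value were counted in its place. Their number ran from 897 to 1760 (median 1247) in detected and from 1078 to 1428 (median 1132) in undetected cells. Ribosomal protein genes held 6.26% to 12.8% of a detected cell's summed FPKM and 5.79% to 8.95% of an undetected cell's. Values below 2.5 set cells 1 to 5, 6 to 14 and 15 to 17 apart, and these sets, found in the data and not named in the labels, held 3, 6 and 3 detected and 2, 3 and 0 undetected cells. Values within the first and the second set are given beside several of the genes, and the calls left after each set's mean was subtracted are given with the counts.

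A total of 7539 genes other than Pi16 reached a value of 1 in at least 3 cells and were compared. A gene was counted as higher or lower when the means of the 2 kinds of cell differed by at least 2 on the deposited scale and when at least 80% of the 60 pairs of 1 detected and 1 undetected cell went the same way. On that rule 123 genes (1.63% of those compared) were higher and 173 (2.29%) were lower in Pi16-detected cells. A gene was counted as found more or less often when the shares of cells with a value of 1 or more differed by at least 50 percentage points, which 150 genes (1.99%) and 185 genes (2.45%) did. The median difference over all genes was 0.03, and the middle part of the genes, between the quartiles, lay between -0.71 and 0.75. When each of the 17 cells was left out in turn, 50 of the 123 higher and 73 of the 173 lower genes met the rule every time, as did 101 of the 150 found more often and 100 of the 185 found less often. The detection calls depended strongly on the cutoffs. With genes called found at an FPKM of 5, 44 of the 150 and 90 of the 185 remained, among totals of 140 and 176. With the cells instead split at a Pi16 FPKM of 5, 41 and 42 remained, among totals of 109 and 109. With the mean of each of the 3 sets of cells subtracted from its cells, 59 of the 123 higher genes (48.0%) and 113 of the 173 lower genes (65.3%) still met the rule, among totals of 102 and 148. Of the genes named below, the calls of Ackr3, Limch1, Thy1, Bmp1, Nr4a3, Usp2, Rab26os, Anapc15, Ddit3 and Sulf1 (higher) and of Col16a1, Id2, Psmb8, Ccdc28b and Epb41l4aos (lower) ended there, and those of Dpp4, Anxa3, Cd55, Col14a1, Ccl7, Cxcl12, Sparcl1, Steap4, Cxcl14 and Fos did not. Cells 15 to 17 held no undetected cell, so subtracting their own mean can by itself weaken a call. Within cells 1 to 5 and cells 6 to 14 Usp2 differed by 4.22 and 4.16, while Limch1 differed by 0.03 and 3.01.

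Most genes known from adventitial fibroblasts had a higher mean in the Pi16-detected cells. Of 40 such genes 35 were measured and 34 compared. The difference was above 0 for 25 and below 0 for 9, with a median of 0.78 against 0.03 over all genes, of which 51.1% were above 0. Dpp4, Anxa3, Limch1, Cd55 and Ackr3 met the rule as higher, which is 5 of 34 against 1.63% of all genes, and no member met it as lower. This list, like the others below, was drawn up with earlier results of these data known, so such shares are a description only. Averaged over the list, the level of a cell ran from 4.81 to 7.93 (mean 6.55, SD 1.02, 12 cells) in detected and from 5.27 to 6.33 (mean 5.81, SD 0.41, 5 cells) in undetected cells. The highest list levels belonged to detected cells 11, 6 and 15, but detected cell 9, at 4.81, was below all undetected cells.

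Dpp4 (dipeptidyl peptidase 4, also CD26, a surface enzyme that trims peptides) had the largest difference in that list. It lies on the reverse strand at chr2:62330073-62412231. In detected cells its value ran from 0.00 through a median of 3.32 to 7.24 (mean 3.58, SD 2.52), and in undetected cells 1, 3, 7, 12 and 13 it was 0.31, 0.72, 0.16, 0.19 and 0.26 (mean 0.33, SD 0.23). All undetected cells were below 1, as were detected cells 4, 14 and 16, at 0.78, 0.26 and 0.00, and the 2 ranges overlapped only through cells 14 and 16. Dpp4 was found in 9 of 12 detected cells (75%, exact Clopper-Pearson 95% interval 42.8% to 94.5%) and in 0 of 5 undetected cells (interval up to 52.2%). Both intervals cover counting error over cells only and treat the cells as independent, although no animal is named. Both transcripts were found in 9 cells, Pi16 alone in 3, Dpp4 alone in 0 and neither in 5. The difference of means was 3.25, with 3.05 within cells 1 to 5 and 3.92 within cells 6 to 14. An annotated antisense transcript overlaps Dpp4, and the sources used here do not say whether the authors counted by strand.

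The 250 bases before the annotated start of Dpp4 and of Fos, the lower gene with no overlap described further on, are shown because Dpp4 was found only in Pi16-detected cells and Fos was lower in all of them. They are RefSeq sequences on GRCm38.p6, read 5′ to 3′ on the gene's own strand, at chr2:62412232-62412481 (reverse strand) and chr12:85473640-85473889 (forward strand). Capitals mark the only matches to 3 searched motifs.
Dpp4: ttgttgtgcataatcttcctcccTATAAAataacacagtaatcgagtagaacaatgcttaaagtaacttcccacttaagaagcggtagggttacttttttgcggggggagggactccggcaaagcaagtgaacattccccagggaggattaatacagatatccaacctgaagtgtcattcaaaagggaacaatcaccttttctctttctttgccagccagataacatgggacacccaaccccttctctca
Fos: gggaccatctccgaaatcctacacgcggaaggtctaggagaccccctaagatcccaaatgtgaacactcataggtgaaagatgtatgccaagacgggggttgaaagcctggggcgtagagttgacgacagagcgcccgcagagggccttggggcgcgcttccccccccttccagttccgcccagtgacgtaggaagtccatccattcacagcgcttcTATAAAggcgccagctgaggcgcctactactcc
The motifs, each searched on both strands, were TGANTCA (the AP-1 site, found in 6.75% of 32851 promoter windows of this length), TGACGTCA (the cyclic AMP response element, 1.55%) and TATAAA (the TATA box, 12.4%). TATAAA began at base -227 of Dpp4 and at base -33 of Fos, counted from the start of transcription. A match was counted at any position, and whether either one works as a TATA box was not tested. Exact copies of the other motifs were not in either window. The Fos window holds tgacgtag, which shares its first letters with TGACGTCA but is not an exact match and so is not marked. Sites that vary from the searched letters were not sought.

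Of the other 4 higher members, Anxa3, Cd55 and Ackr3 were found in all 17 cells and Limch1 in 5. Anxa3, a calcium- and phospholipid-binding annexin, ran from 6.01 through a median of 10.71 to 13.69 in detected cells and was 7.36, 7.39, 8.89, 10.72 and 3.84 in undetected cells 1, 3, 7, 12 and 13. Its difference of 2.69 no longer met the rule without cell 13, the lowest cell. Cd55, decay-accelerating factor, which protects cells from complement, ran from 3.96 through 7.11 to 9.66 and was 5.20, 6.15, 3.56, 6.53 and 1.75. Its difference of 2.39 also ended as a counted one without cell 13. Ackr3, an atypical receptor that takes up the chemokine Cxcl12, ran from 2.46 through 8.30 to 10.07 and was 5.80, 2.35, 8.61, 6.61 and 7.08. Its difference of 2.16 lost the call without cell 3 or cell 6. Differences within cells 1 to 5 and within cells 6 to 14 were 2.07 and 3.42 for Anxa3, 0.80 and 3.40 for Cd55, and 2.22 and 1.56 for Ackr3. Limch1, an actomyosin regulator, was found in 5 of 12 detected cells, at up to 7.63 in cell 11, and in 0 of 5 undetected cells, where it was at most 0.30. No Limch1 above 1 was seen in detected cells 2, 4 and 5, and its difference within cells 1 to 5 was 0.03.

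Members of the list that missed the rule lay on both sides. The microfibril protein Mfap5 differed by 1.76 and the receptor kinase Axl by 1.64, each with the detected cell higher in 88.3% of pairs. Within cells 1 to 5 and within cells 6 to 14 Mfap5 differed by 0.32 and 2.74, and Axl by 1.81 and 1.30. Ugdh and Has1, enzymes of hyaluronan synthesis, differed by 1.69 and 1.31, the ubiquitin hydrolase Uchl1 by 1.67 and the surface protein Cd248 by 1.16. On the other side, Tppp3 differed by -1.98, Plac8 by -1.63 and Ly6c1 by -0.89. Igfbp6, an IGF-binding protein common in these fibroblasts, was at 8.76 to 11.88 in detected and 9.72 to 10.77 in undetected cells and differed by -0.07.

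**Figure D2:**
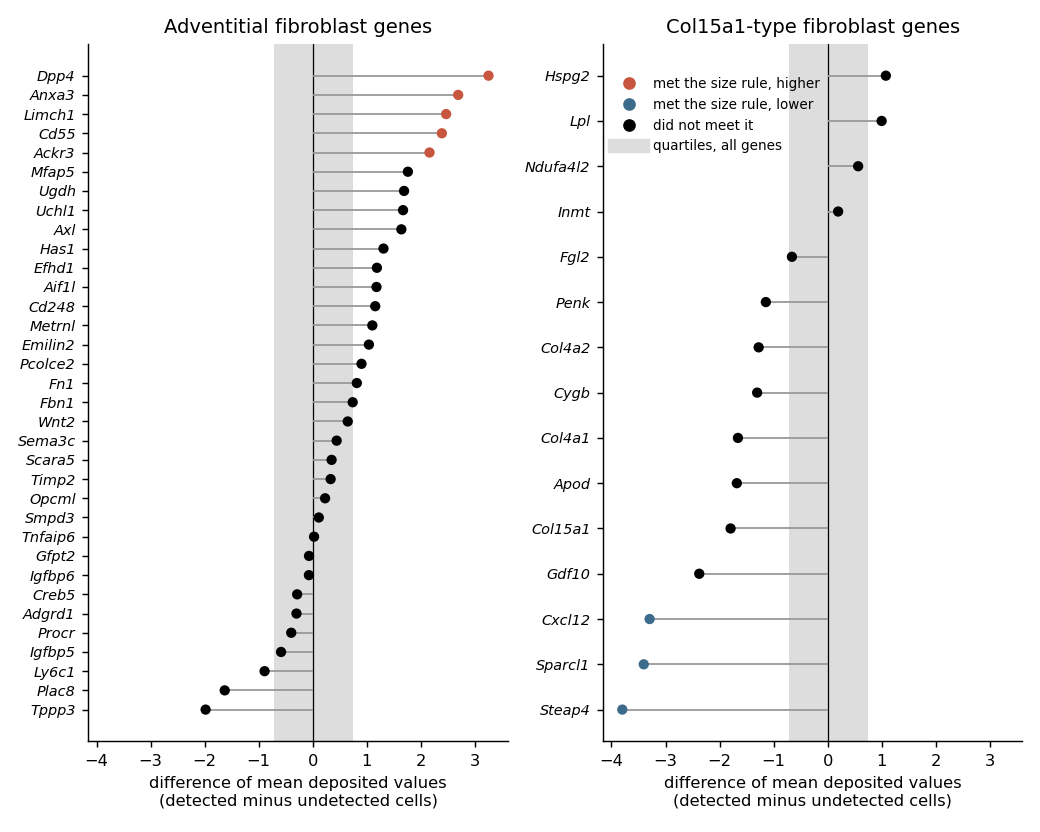
Difference of mean deposited values, detected minus undetected cells (horizontal axis), for each compared member (vertical axis) of the adventitial list, left, and the Col15a1-type list, right. Each point is a gene, coloured where it met the size rule, and the grey band spans the quartiles of all 7539 genes. Of the adventitial genes 25 of 34 lie above 0, and of the Col15a1-type genes 11 of 15 lie below 0.

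Genes of Col15a1-type fibroblasts leaned the other way. Of 16 such genes 15 were measured and compared, 11 had a difference below 0, and the median was -1.30. Steap4, Sparcl1 and Cxcl12 met the rule as lower, which is 3 of 15 against 2.29% of all genes, and none met it as higher. The 3 calls held with each cell left out in turn. Only Sparcl1 also met the rule at the other Pi16 splits described further on: Cxcl12 missed it at an FPKM of 5 (-2.03) and Steap4 at 5 (-2.61) and 10 (-2.08). Averaged over the list, the level of a cell ran from 2.42 to 5.52 (mean 4.42, SD 0.82) in detected and from 4.40 to 6.34 (mean 5.72, SD 0.82) in undetected cells, and undetected cell 7, at 4.40, lay among the detected cells.

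Cxcl12, the chemokine that holds blood-forming and immune cells near stroma, ran from 0.88 through a median of 5.03 to 7.57 in detected cells (mean 4.69, SD 1.84). In undetected cells 1, 3, 7, 12 and 13 it was 6.01, 9.17, 7.89, 6.06 and 10.79 (mean 7.99, SD 2.05). Cells 3, 7 and 13 were above all detected cells, and the pairs that went the other way held cell 1 or cell 12. Sparcl1, a matricellular glycoprotein, ran from 0.83 through 3.13 to 7.52 and was 7.99, 8.16, 6.22, 4.29 and 9.39, a difference of -3.40. Steap4, a metalloreductase, ran from 0.38 through 1.89 to 5.90 and was 6.83, 7.64, 2.80, 6.28 and 7.68, a difference of -3.80. For both genes 1 or more undetected cells (7, and for Sparcl1 also 12) fell within the detected range. Differences within cells 1 to 5 and within cells 6 to 14 were -2.48 and -3.98 for Cxcl12, -3.60 and -2.85 for Sparcl1, and -3.58 and -3.81 for Steap4. The name gene Col15a1 differed by -1.80 and the growth factor gene Gdf10 by -2.38, both short of the rule, while the heparan sulfate proteoglycan gene Hspg2 differed by 1.08.

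Subtracting the Col15a1-type level from the adventitial level within each cell gave 0.214 to 5.22 (median 1.91) in detected cells and -0.923 to 1.34 (median -0.273) in undetected cells. Cell 15 was highest and cell 1 lowest. Undetected cells 7 (1.34) and 12 (0.873) overlapped the detected cells, of which cell 16, the one nearest the Pi16 split, was lowest.

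**Figure D3:**
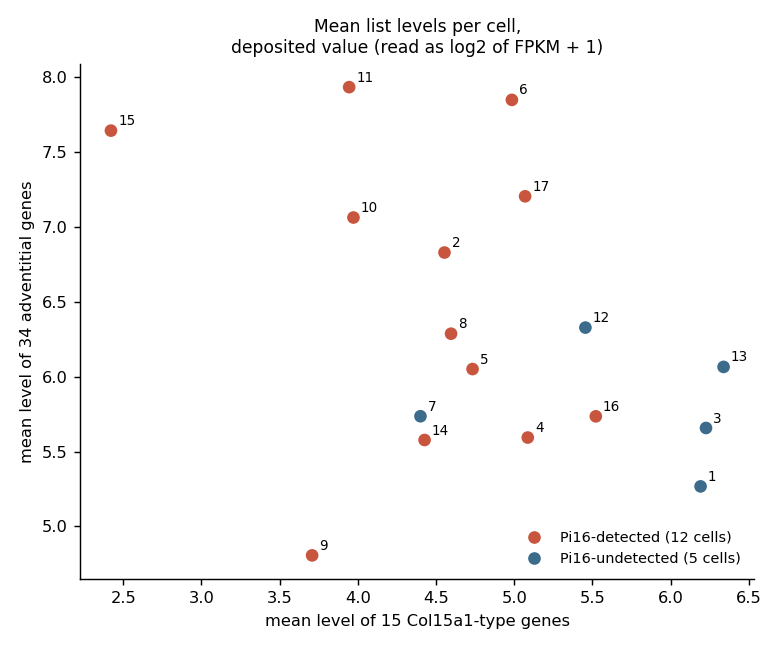
Mean deposited value of the 34 adventitial genes (vertical axis) against that of the 15 Col15a1-type genes (horizontal axis), 1 point per cell, labelled with the cell number and coloured by Pi16 class. Undetected cells 1, 3 and 13 have the highest Col15a1-type levels, while undetected cell 7 lies beside detected cell 14.

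Among genes of the extracellular matrix, single members met the rule in both directions. Of 17 collagen genes 4 had a difference above 0, with a median of -0.85. In that list 1 gene met the rule as higher and 1 as lower, against 1.63% and 2.29% of all genes. Col14a1, the fibril-associated collagen XIV (ENSMUSG00000022371, chr15:55307750-55520803), met the rule as higher. It ran from 2.14 through a median of 6.82 to 8.23 in detected cells (mean 6.58, SD 1.60) and was 1.40, 1.96, 3.26, 5.53 and 1.17 in undetected cells 1, 3, 7, 12 and 13 (mean 2.67, SD 1.79). The detected cell was higher in 96.7% of pairs, and the overlap came from detected cell 10, at 2.14, against cells 7 and 12. The difference was 3.92, with 6.11 within cells 1 to 5 and 2.59 within cells 6 to 14. Col16a1 met the rule as lower, by -2.22, but lost the call when any 1 of 10 cells was left out. P4ha2, a prolyl 4-hydroxylase subunit that prepares collagen for folding, ran from 1.14 through 5.26 to 6.69 in detected cells and was 8.12, 6.80, 10.36, 7.28 and 6.59 in undetected cells. It was lower in the detected cell in all but 1.67% of pairs and differed by -3.44.

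The matrix remodelling list of 27 genes had a median difference of 0.02. Adamts5, an aggrecan-cutting protease, met the rule as higher (difference 2.63), a call that ended without cell 7. The call also ended with the cells split at a Pi16 FPKM of 5 (difference 2.19) or 10 (1.70). The lower members of the list were P4ha2 and Mmp19 (-2.82), a matrix metalloproteinase. Adamts5 was 1.60, 2.03, 1.03, 4.93 and 3.36 in undetected cells 1, 3, 7, 12 and 13 against 0.34 through 6.38 to 7.09 in detected cells. The 25 compared proteoglycan and glycoprotein genes had a median of 0.70, 15 above 0, and none met the rule in either direction. Bmp1, a procollagen proteinase that also acts on TGF-beta-binding proteins, met it as higher at 2.06, and lost the call when any 1 of 6 cells was left out.

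Chemokine genes were divided. Of 16 compared, 1 met the rule as higher, Ccl7, a monocyte attractant (against 1.63% of all genes), and 3 as lower, Cxcl12, Cxcl14 and Cxcl16 (against 2.29%), with a list median of 0.38. Ccl7 ran from 4.02 through 11.85 to 13.69 in detected cells and was 7.55, 9.28, 9.12, 7.80 and 6.97 in undetected cells, a difference of 2.97. Within cells 1 to 5 the Ccl7 difference was 1.16, and within cells 6 to 14 it was 3.58. Cxcl14, a chemokine of epithelia and stroma, ran from 0.00 through 1.23 to 5.19 and was 6.84, 5.09, 3.08, 3.33 and 7.65, a difference of -3.53. It was found in 7 of 12 detected and 5 of 5 undetected cells. Cxcl16 differed by -3.60 and lost the call without cell 1, 3 or 13. Tslp, an epithelial and stromal cytokine, was found in 6 of 12 detected and 0 of 5 undetected cells. Of 10 complement genes 7 had a difference below 0. Complement factor gene C2 differed by -3.37 without meeting the rule, and Cd55 was the list's only counted member.

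Fos, an AP-1 subunit made within minutes of a stimulus, was the only gene with all Pi16-detected cells below all undetected cells (0.0133% of the genes compared). Its value ran from 7.61 through a median of 9.07 to 11.20 in detected cells (mean 9.24, SD 1.24) and was 11.45, 11.45, 12.27, 12.47 and 12.09 in undetected cells 1, 3, 7, 12 and 13 (mean 11.94, SD 0.47). The gap between the nearest cells was 0.25, detected cells 5 and 4 being the closest at 11.20 and 10.96. The difference was -2.71, with -0.92 within cells 1 to 5 and -3.41 within cells 6 to 14. Of the 22 immediate-early genes compared, Fos included, 15 had a difference below 0 and 7 above, and the list median was -0.59 against 0.03 over all genes. Atf3 (-2.50) and Socs3 (-2.11) missed the rule, and the nuclear receptor gene Nr4a3 met it as higher (2.75), losing the call when any 1 of 10 cells was left out. List levels ran from 3.80 to 7.19 in detected and from 6.03 to 6.95 in undetected cells. In the other direction, Setd3, a histidine methyltransferase, was the only gene higher in all detected cells (0.0133%). Its lowest detected value was 0.15 and its highest undetected value 0.11, both below 1.

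**Figure D4:**
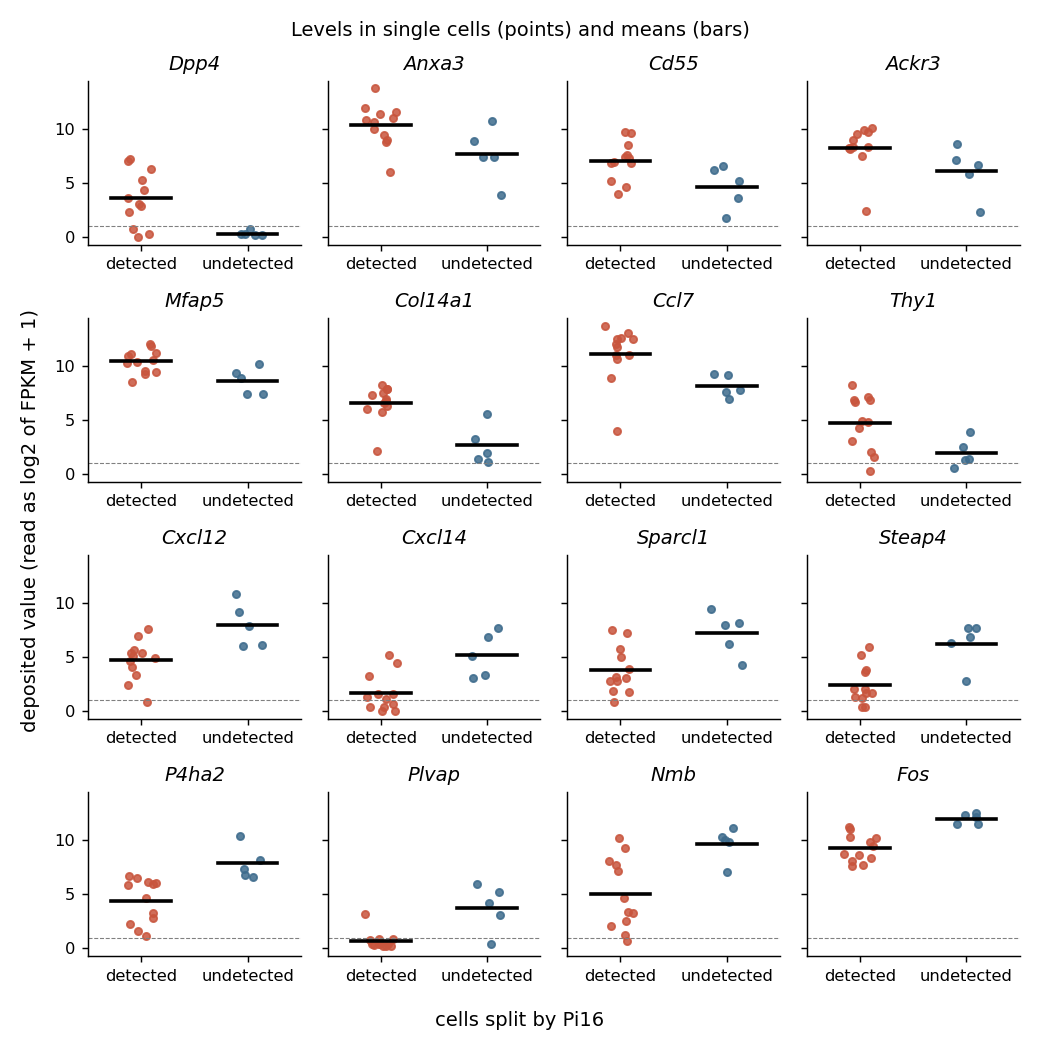
Deposited values (vertical axes, read as log2 of FPKM plus 1) of 16 genes in the 12 Pi16-detected and 5 Pi16-undetected cells (horizontal axes). Points are cells, bars are means and the dashed line marks a value of 1. Dpp4 stays below 1 in all undetected cells, and Fos is the only panel without overlap.

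Signalling, transcription and surface lists gave few counted members, beside 1.63% of all genes counted as higher and 2.29% as lower. In the TGF-beta and BMP list (25 genes, median 0.11) Id2, an inhibitor of basic helix-loop-helix factors, was lower at -3.04, a call that ended without cell 1, 7 or 13, and the ligand gene Tgfb2 was found in 9 of 12 detected and 1 of 5 undetected cells. Id2 differed by 0.23 within cells 1 to 5 and by -4.05 within cells 6 to 14. In the Wnt list (15 genes, median 0.55) Wnt11 was found in 6 of 12 and 0 of 5 cells and no member met the size rule. Of 24 mesenchymal transcription factors (median 0.52) Foxp1 was higher at 2.21, losing the call when any 1 of 8 cells was left out, and Twist1, a regulator of mesenchymal fate, differed by 2.69 with 78.3% of pairs, just short of it. The IGF, FGF and PDGF list (16 genes) held no counted member, and Igf1 differed by -2.04. Thy1 (CD90) was the counted member of the stem cell surface list at 2.80, with 3.87, 1.37, 0.57, 1.34 and 2.47 in undetected cells 1, 3, 7, 12 and 13 against a detected median of 4.89. The Thy1 call ended at a Pi16 FPKM of 5 (difference 1.95) and of 10 (1.19). Fmo1, a flavin monooxygenase on the reticular dermis list, was lower by -3.90, and Psmb8, an immunoproteasome subunit, by -2.64, the latter call ending without cell 1, 3 or 13.

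The lists of heat-shock (median -0.01), antioxidant (0.04), housekeeping (0.01), adipogenic (0.14), papillary (-0.05) and reticular dermis (0.09), interferon (-0.02) and ribosomal protein genes (0.14) had medians near the 0.03 of all genes. Of the 84 ribosomal protein genes 62 had a difference above 0, beside 51.1% of all genes and 25 of 34 adventitial genes, and none met the rule. The cell cycle list had a median of 0.79 over 15 genes, beside 0.78 for the adventitial list, with no member meeting the size rule. Its member Gas1, a growth arrest gene, was found in 9 of 12 detected and 1 of 5 undetected cells. The direction of its level was not the same in the sets. Gas1 differed by 5.98 within cells 1 to 5 and by -1.16 within cells 6 to 14, where undetected cell 12, at 6.62, was highest. Hsph1, a chaperone, was found in 3 of 12 and 4 of 5 cells.

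Markers of other skin cells were few in the table, and their levels ranged widely. Over the 5 pericyte or smooth muscle genes compared, the level of a cell was 0.06 to 2.14 in detected and 0.03 to 1.24 in undetected cells, and over the 3 endothelial genes it was 0.14 to 2.52 and 0.25 to 2.09. Plvap, which forms the diaphragms of endothelial pores, met the rule as lower (difference -3.07): it was 4.21, 5.92, 0.41, 3.07 and 5.20 in undetected cells 1, 3, 7, 12 and 13 and above 1 in only 1 detected cell, cell 8, at 3.19. The other 2 endothelial genes, Tek and Esam, differed by 1.66 and 0.77, and the part of endothelial RNA in the Plvap values was not tested. Csf1r, the 1 macrophage gene compared, was found in 2 of 12 and 3 of 5 cells and differed by -1.78. No member of the keratinocyte, adipocyte, Schwann, melanocyte and erythroid lists (2, 3, 2, 1 and 1 genes compared) met either rule, and none of the T cell and muscle genes was measured. Several of these genes were nevertheless abundant in single cells. The level of the keratinocyte genes was 0.29 to 6.97 in detected and 0.07 to 4.56 in undetected cells, with a median difference of 1.36. It came mostly from Krtdap, a keratinocyte differentiation gene, which was found in 10 of 12 detected and 4 of 5 undetected cells. Krtdap ran from 0.00 through a median of 4.70 to 13.69 in detected cells, where it was 13.69 in cell 15, 12.27 in cell 11 and 8.66 in cell 14, and was 3.50, 0.00, 3.54, 3.62 and 3.99 in undetected cells 1, 3, 7, 12 and 13. Cells 11 and 15 were also among the 3 cells with the highest adventitial level, and the part of keratinocyte RNA in that level was not tested. The other keratinocyte gene, Krt10, was found in 4 of 12 and 1 of 5 cells. Over the adipocyte genes the level was 0.26 to 7.36 in detected and 0.28 to 3.98 in undetected cells. Their member Cfd (adipsin) reached 9.70 in detected cell 16 and 8.70 in undetected cell 12, and Fabp4, a fatty acid carrier, 7.62 in detected cell 2 and 7.48 in undetected cell 3. Mitf, the melanocyte gene, was found in 3 of 12 and 2 of 5 cells, at up to 6.78 in detected cell 5.

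The largest differences over all genes did not belong to the lists, apart from Col14a1 and Fmo1. The 12 largest among the higher genes ran from 3.42 to 4.29 and included the splicing factors Srsf10 (4.29) and Sf1 (3.52), the zinc transporter Slc39a6 (4.26), the GTPase Arl5b (4.28), Prrc2c (4.14), the deubiquitinase Usp2 (3.97), Anapc15 of the anaphase-promoting complex (3.68), the Golgi protein Golgb1 (3.42), Pigyl (3.47) and the noncoding RNA Meg3 (3.67). Srsf10 was 1.50, 0.53, 0.34, 0.90 and 0.45 in undetected cells 1, 3, 7, 12 and 13 against 0.79 through 5.56 to 7.61 in detected cells, and Slc39a6 was found in 9 of 12 detected and 0 of 5 undetected cells. Prrc2c was at 0.22, 2.69, 0.28, 2.24 and 2.51 against 1.94 through 5.96 to 9.21. The antisense RNA Rab26os was listed at 0 in the 5 undetected cells and found in 8 of 12 detected cells, with the same limit on strand as for Dpp4. Anapc15 was found in 8 of 12 and 0 of 5 cells, but its call ended when any 1 of 11 cells was left out, and its difference was 0.28 with the cells split at a Pi16 FPKM of 5 and 0.95 at 10. Usp2 lost its call without cell 3. Within cells 1 to 5 and within cells 6 to 14, Golgb1 differed by 0.41 and 5.00, Prrc2c by 1.90 and 3.86, and Pigyl by 2.62 and 3.65. Arl5b lost its call without any 1 of cells 1, 7, 12 and 13, and undetected cell 3, at 8.63, was near the highest detected value of 8.88.

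The 12 largest among the lower genes ran from -5.01 to -3.86. They were Epb41l4aos (-5.01), the splicing-associated Pnisr (-4.68), the mitochondrial ribosomal protein gene Mrpl2 (-4.62), the neuropeptide gene Nmb (-4.62), the endosomal sorting gene Vps36 (-4.38), the protease gene Prss36 (-4.24), Ccdc28b (-4.11), Itfg2 (-4.08), the ubiquitin ligase adaptor Sharpin (-3.98), the corepressor Trim28 (-3.95), Fmo1 and Pigp (-3.86). Nmb, neuromedin B, ran from 0.69 through 4.01 to 10.14 in detected cells and was 9.76, 11.05, 7.02, 10.28 and 9.98 in undetected cells 1, 3, 7, 12 and 13. Undetected cells 3 and 12 were above all detected cells. Pnisr was 3.38, 8.71, 8.65, 6.96 and 7.67 against 0.11 through 1.62 to 7.66. Prss36 was below 1 in all 12 detected cells and found in 4 of 5 undetected cells, all but cell 7. Epb41l4aos lost its call without cell 1, 3 or 12.

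Across the 17 cells, the ranks of Pi16 and of other genes were compared as a description, among 3955 genes found in at least 9 cells. These ranks use the Pi16 values that chose the cells, and all cells share 1 normalisation. The highest Spearman rho values were those of Osbpl1a (0.762), Gramd3 (0.757), B2m (0.746), Tmbim6 (0.735) and Med13 (0.730), and the lowest were those of Pnisr (-0.775), Entpd2 (-0.750), Col5a2 (-0.745), Fos (-0.738) and Sparcl1 (-0.725). Within the 12 detected cells alone rho was 0.727 for Osbpl1a, 0.818 for Gramd3, 0.737 for B2m, 0.469 for Tmbim6 and 0.552 for Med13. Among the lowest it was -0.469 for Pnisr, -0.706 for Entpd2, -0.524 for Col5a2, -0.336 for Fos and -0.448 for Sparcl1. Of these genes B2m, the light chain of MHC class I, differed by 0.54 between the kinds of cell, and the ectonucleotidase Entpd2 by -1.59.

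The split at a value of 1 is 1 of several that the Pi16 values allow. At an FPKM of 5 the cells divided into 9 and 8, with 77 higher and 65 lower genes, of which 27 and 26 were among the 123 and 173. At an FPKM of 10 they divided into 8 and 9, with 78 higher and 71 lower genes, of which 21 and 24 were shared. The rule was met under all 3 splits, which share most of their cells, by 15 higher and 14 lower genes. The higher ones include Dpp4 (3.25, 2.74 and 2.51 at FPKM 1, 5 and 10), Anxa3 (2.69, 2.75 and 2.93), Ccl7 (2.97, 4.09 and 3.91), Foxp1, Golgb1, Pigyl and Prrc2c, and, named after their values were seen, Rian, the endoplasmic reticulum stress factor Ddit3, the glycolytic hexokinase Hk2, the heparan sulfate sulfatase Sulf1 and the interferon receptor chain Ifnar2. The lower ones include Sparcl1 (-3.40, -3.04 and -3.68), Cxcl14 (-3.53, -3.29 and -3.02), Nmb, Plvap and Pnisr. Fos met the rule only at the first split, with -1.74 and -1.59 at the others. Of the list members named above, Ackr3, Adamts5, Thy1, Bmp1, Nr4a3, Steap4, Cxcl16, Mmp19, Id2, Fmo1 and Psmb8 also met it only at the first split, Cd55 and Cxcl12 missed it at an FPKM of 5 alone, and Limch1, Col14a1, Col16a1 and P4ha2 at 10 alone. Among the 12 largest differences each way, only Golgb1, Pigyl and Prrc2c (higher) and Nmb and Pnisr (lower) met it at all 3. Vps36 turned from -4.38 through -1.16 to 0.10.

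**Figure D5:**
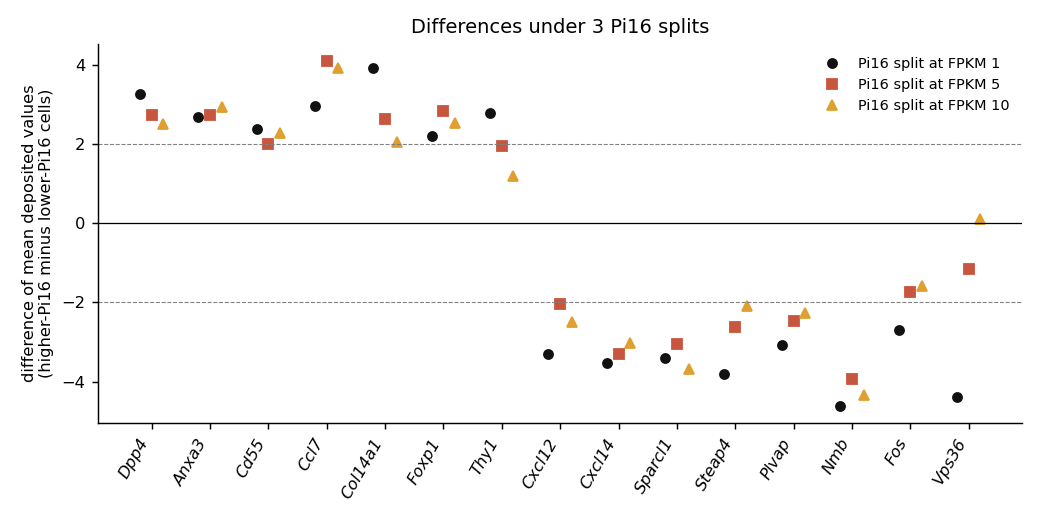
Difference of mean deposited values (vertical axis, higher-Pi16 minus lower-Pi16 cells) of 15 genes (horizontal axis) with the cells split at a Pi16 FPKM of 1, 5 or 10. Dashed lines mark the minimum size of 2 in each direction. Dpp4, Anxa3, Ccl7, Sparcl1, Cxcl14 and Nmb keep a difference of at least 2 at all 3 splits, and Vps36 does not.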

How the data were processed

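RNA of 17 single Tomato-positive skin cells was analysed. The authors deposited log-scale values in 1 table, read here as log2 of FPKM plus 1. This is a reading, since no source used here states the log base or the constant. The reads went through TopHat2 and Cufflinks on GRCm38, per the submitters' processing notes. Tool versions were not given in the sources used here. Sorted deposited log2 values were nearly the same in all cells (differences of at most 0.0165 above a value of 3), as quantile normalisation gives, so read depth is unknown and the number of genes found carries no information. The table has 8446 rows and 8431 symbols. Where rows shared a symbol, the one with the highest mean stood for it, and 99.8% of rows matched GENCODE M21 by identifier. No column of per-sample values was left unused.

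Cells were split at a Pi16 value of 1. Genes with a value of 1 or more in at least 3 cells were compared by the difference of means (at least 2), the share of cell pairs going 1 way (at least 80%, ties counted equally for both ways) and the difference in the share of cells found (at least 50 points). No test was run, since the cells form 1 sample. The code for the counting rules was checked on shuffled values with a known shift added to chosen genes. That check bears on the code only, not on how many genes would be counted by chance. Computation used Python 3.11.15 with matplotlib 3.10.9, scipy 1.17.1, numpy 2.4.6 and pandas 2.3.3. The members and gene lists were chosen with earlier results of these data known. Named genes are the 12 largest differences each way among genes meeting the rule (without ribosomal protein genes and unnamed gene models), the 3 largest of each list, all adventitial genes, genes without overlap, the 5 highest and 5 lowest rank correlations with Pi16, and Prrx1. Other names are list members that met a rule, or were chosen after their values were seen. A member of the lists is not reported here. Alternatives changed the split, the pseudocount, the filter, the average, the thresholds and the cells used.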

Additional observations from a re-analysis of the deposited data

How the results depend on the processing

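The direction of the adventitial median (0.78) was kept under the alternatives run, from 0.33 with cells 6 to 14 only to 0.96 at a Pi16 FPKM of 5, and from 0.49 to 0.99 with single cells left out. The counts of genes changed with the settings. Among 642 differences of 50 named genes under 13 alternatives, Vps36 alone changed sign, to 0.10 at FPKM 10. Of the rest, 1 moved by more than the gene's SD over the 17 cells, and 640 did not. Those 640 include values from the filters, the detection threshold and the smaller minimum size, settings that cannot alter a difference. They also include large changes, such as that of Anapc15 from 3.68 to 0.28 at FPKM 5. The main counts were 123 higher, 173 lower, 150 found more often and 185 found less often. With Pi16 split at FPKM 5 there were 77 higher, 65 lower and 109 found less often, and at FPKM 10 there were 78, 71 and 100. A pseudocount of 0.1 gave 197 higher. A filter at 9 cells, with 3955 genes compared, gave 102 lower, 80 more often and 59 less often. A minimum size of 1, or 35 points, gave 216 higher, 486 more often and 520 less often. Cells 6 to 14 alone (6 against 3 cells) gave 334 higher, 366 lower, 632 more often and 558 less often. Leaving out each cell in turn gave 117 to 168 higher, 172 to 211 lower, 152 to 251 found more often and 187 to 282 found less often. The count found more often exceeded 1.5 times its main value without cell 1 (234), 3 (243), 7 (248), 12 (251) or 13 (247), the undetected cells, and the count found less often did so without cell 3 (282). Only 4 undetected cells are left in each of these. Subtracting the mean of each set of cells gave 102 higher and 148 lower, of which 59 and 113 were among the main calls. Leaving out cells 15 to 17, chosen after the data were seen, gave 136 higher and 172 lower. The planned split at the lowest deposited value was not run, because no cell had it. No paired analysis was possible because there is only 1 group. Depth is unknown, so a value below 1 means only that a gene fell short of the cutoff for found, not that it was absent. Pi16 itself was at 0.454 to 0.792 in the 5 undetected cells.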

Other observations

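Of 3 noncoding RNAs of the imprinted Dlk1-Dio3 region, looked at after their values were seen, Meg3 and Rian met the rule as higher in Pi16-detected cells and Mirg did not. Over all genes 1.63% met the rule as higher, and 3 genes picked after their values were seen give no share to set beside that. Meg3, expressed from the maternal copy (chr12:109541001-109571726), ran from 1.92 through a median of 7.48 to 9.06 in detected cells and was 1.68, 2.18, 1.35, 7.02 and 2.21 in undetected cells 1, 3, 7, 12 and 13, so that undetected cell 12 alone lay among the higher detected cells. Its call ended with the cells split at a Pi16 FPKM of 5 (2.09) or 10 (1.90). Rian ran from 0.36 through 2.75 to 7.49 in detected cells and from 0.21 to 1.20 in undetected cells. It was found in 11 of 12 and 2 of 5 cells, with the detected cell higher in 93.3% of pairs. Mirg, another transcript of the region, was found in 3 of 12 and 0 of 5 cells and met neither rule.

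Some large differences in detection, also named after their values were seen, belonged to genes outside the lists. The calcium-dependent transcription factor gene Nfatc2 and the Ral guanine exchange factor gene Rgl1 were each found in 1 of 12 Pi16-detected and 5 of 5 undetected cells. Deptor, an inhibitor of mTOR, was found in 3 of 12 and 5 of 5 cells. In the other direction, Enpp2, the enzyme that makes lysophosphatidic acid (autotaxin), and the lysosomal transcription factor gene Tfe3 were each found in 9 of 12 and 0 of 5 cells. Dpp4, a member of the adventitial list, had the same counts. The integrin gene Itgb3 and the translation factor genes Eif2a and Eif4g1 were each found in 11 of 12 and 1 of 5 cells. With 5 undetected cells, 1 cell is 20 percentage points of a share.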
